A study of Homo sapiens with 8 samples.

Results

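The genes described here are 46 genes for matrix glycoproteins and secreted proteoglycans, chosen by gene symbol from the 57820 genes of the deposited table, with collagens and laminins left out. All 46 symbols were found, each in 1 row. The extracellular matrix is the network of secreted proteins around cells. Fibronectin and matricellular proteins sit between that network and cell surface receptors, fibrillin microfibrils carry elastic fibres and store latent TGF-beta, and basement membranes form the sheet under an epithelium. In carcinoma cells, epithelial–mesenchymal transition (EMT) is classically accompanied by more fibronectin and by loss of basement membrane contact.

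RNA was sequenced from OVCA429, an established human ovarian cancer cell line, with a stable short hairpin RNA against GRHL2 (shGRHL2, construct #12, the GRHL2 knockdown) or against luciferase (shLuc, the control). Both lines were grown as cell cultures with serum and under puromycin, which keeps cells that carry the hairpin vector, and they were compared to find genes that depend on GRHL2, a transcription factor of epithelial cells. Only 1 hairpin against GRHL2 was sequenced, so effects of that hairpin and of GRHL2 loss cannot be told apart. Each group has 4 samples by its labels, but these differed little more than repeat sequencing of the same library: among genes with a mean of at least 100 FPKM, the median coefficient of variation was 2.79% for shGRHL2 and 2.72% for shLuc. Each group was therefore counted as 1 library in 4 runs, ± is the SD between those runs, and no difference has a replicate check between separate cultures. No p-value is given for that reason.

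GRHL2 (chr8:102504667-102681954 on GRCh37) checks the labels. It was at 0.13, 0.15, 1.17 and 0.10 FPKM in the 4 shGRHL2 runs, against 31.5, 38.7, 33.4 and 32.0 FPKM in the 4 shLuc runs. Run 3 stood above the other shGRHL2 runs, a spread beyond counting (chi-square per degree of freedom of 14.1, where counting alone gives 1). FPKM is the fragments of a gene scaled by its effective transcript length and by the sequencing depth, so levels of different genes can be compared per length. The depth, estimated from the steps of low values, was 10.0 to 10.3 M fragments per shGRHL2 run and 9.35 to 9.68 M per shLuc run. The labelled cell type held: all 6 markers of the carcinoma line (PAX8, EPCAM and 4 keratins) were expressed in both libraries, with a summed level of 1792 to 1847 FPKM in shGRHL2 runs and 4935 to 4998 FPKM in shLuc runs. EPCAM averaged 24.3 FPKM in shGRHL2 and 203 FPKM in shLuc, and KRT19 141 and 877 FPKM. The other 3 keratins were lower in shGRHL2 too, whereas PAX8 was higher (122 and 69.8 FPKM). Of 9 fibroblast markers, 7 (PDGFRA, PDGFRB, COL1A2, COL3A1, THY1, DPT and FAP) were under 1 FPKM in every run. The summed level of the 9 was 68.6 to 84.2 FPKM in shGRHL2 and 24.8 to 28.5 FPKM in shLuc, most of it from PDPN. COL1A1 averaged 3.6 ± 1.0 FPKM in shGRHL2 and 1.19 ± 0.70 FPKM in shLuc. Of 7 endothelial markers found in the table, 3 passed the filter on low values described next (TIE1, CDH5 and KDR). VWF, TEK, CLDN5 and ERG were under 1 FPKM in every run, and PECAM1 was not found by symbol. The summed level was 94.0 to 99.2 FPKM in shGRHL2 and 0.86 to 1.28 FPKM in shLuc. Most of it came from TIE1, at a mean of 84.7 FPKM in shGRHL2 and 0.72 FPKM in shLuc. CLDN5 was lower in shGRHL2, at 0.0325 and 0.125 FPKM. The 8 leukocyte markers summed to 9.38 to 10.4 FPKM in shGRHL2 and 2.56 to 4.34 FPKM in shLuc, with CD3E, CD14 and LYZ among those under 1 FPKM in every run. Most of the sum came from LAPTM5, at a mean of 6.4 FPKM in shGRHL2 and 1.76 FPKM in shLuc, and CD68, at 2.74 and 0.88 FPKM. The 7 mesothelial markers summed to 37.8 to 44.7 FPKM in shGRHL2 and 28.8 to 36.2 FPKM in shLuc, with CALB2, WT1 and DES under 1 FPKM. MSLN averaged 34.3 FPKM in shGRHL2 and 22.4 FPKM in shLuc, LRRN4 3.15 and 1.90 FPKM, and BNC1 1.28 and 0 FPKM. UPK3B was lower in shGRHL2, at 2.48 and 7.39 FPKM. The part of all these markers in the matrix results was not tested, and in RNA from whole cultures fewer cells of a type and less RNA per cell cannot be told apart.

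More matrix genes were higher than lower after GRHL2 knockdown. The difference used throughout is that of the means of log2(FPKM + 1), shGRHL2 minus shLuc, and a gene was called higher or lower at 1 or more (2-fold on that scale) if its mean was 1 FPKM or more in either library. Of the 46 genes, 17 were called higher and 2 lower, 17 passed the filter within 2-fold, and 10 did not pass it. In the 19 genes called, the 4 runs of one library did not overlap with the 4 runs of the other. Such runs apart were common: 18.5% of all genes tested had every shGRHL2 run higher and 33.2% had every one lower. Over all 15019 genes tested, 4.97% were called higher and 7.24% lower. A difference of 2 or more towards shGRHL2 was found in 10 of the 46, against 1.11% of genes tested. The median difference was 0.60 over all 46 genes and 0.97 over the 36 that passed the filter, against −0.10 over all genes tested. Of the 36, 11 passed only through shGRHL2 and 1 (LAD1) only through shLuc, so the filter fixed the direction of these 12. Among the 24 genes with a mean of 1 FPKM or more in both libraries, 8 were higher (FN1, TNC, TGFBI, EFEMP1, FBN2, FBLN1, LTBP2 and LTBP4) and 1 lower (VWA1). Over all 12980 genes at that level in both, 2.99% were higher and 5.6% lower.

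**Figure D1:**
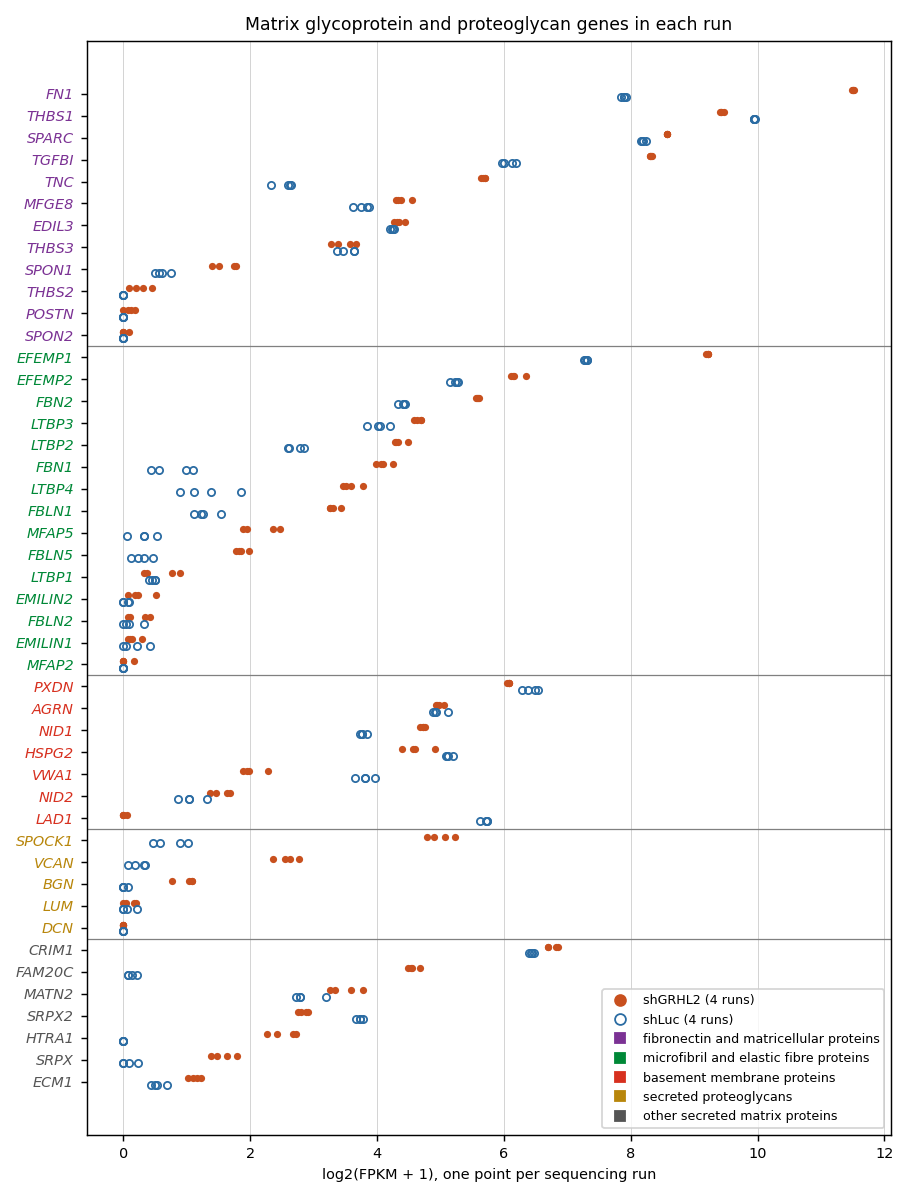
Level of each of the 46 genes in each sequencing run, as log2(FPKM + 1), with 4 filled points for shGRHL2 runs and 4 open points for shLuc runs. Genes are grouped by role, and FN1, TNC, FBN1, SPOCK1, VCAN and FAM20C show wide gaps to the right for shGRHL2, whereas LAD1 and VWA1 show them to the left.

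Fibronectin, FN1 (ENSG00000115414.14, chr2:216225163-216300796, minus strand), dominated the change in level. It was at 2946, 2877, 2903 and 2896 FPKM in the shGRHL2 runs, against 237, 243, 237 and 228 FPKM in the shLuc runs. The libraries lay far apart with little spread between runs, and the means were 2905 ± 29.1 and 236 ± 5.99 FPKM (12.3-fold higher, a difference of 3.61). In the shGRHL2 library FN1 ranked 2 among nuclear protein-coding genes by FPKM, between the translation factor EEF1A1 and the glycolytic enzyme GAPDH, and in shLuc it ranked 232. Fragments of FN1 made up 1.68% ± 0.017 of all fragments in shGRHL2 and 0.137% ± 0.0035 in shLuc. FN1 has 30 annotated transcripts in the table and was quantified as their sum, so splice forms were not compared.

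The FN1 promoter is shown because this gene carries most of the summed change. The sequence covers the 250 bases before the RefSeq start (chr2:215436069-215436318 on GRCh38.p14, minus strand, written 5′ to 3′ along the gene), and the capitals mark a cAMP response element of the letters TGACGTCA.
FN1: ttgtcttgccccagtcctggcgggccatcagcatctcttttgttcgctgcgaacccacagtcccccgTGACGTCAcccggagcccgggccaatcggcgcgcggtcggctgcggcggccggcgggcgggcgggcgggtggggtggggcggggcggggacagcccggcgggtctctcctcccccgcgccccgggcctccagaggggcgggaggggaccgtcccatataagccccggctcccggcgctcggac
This element begins 183 bases before the start. It is present in 1.65% of the 35116 RefSeq promoters of the same length, and a match of letters is a description, not evidence of binding.

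The summed level of the 46 genes was 5538 ± 39.4 FPKM in shGRHL2 and 2202 ± 10.4 FPKM in shLuc (2.51-fold higher). Without FN1 the sums were 2632 ± 22.6 and 1966 ± 10.0 FPKM (1.34-fold higher). The make-up of the sum changed as well. FN1 held 52.5% ± 0.30 of it in shGRHL2 and 10.7% ± 0.26 in shLuc, whereas thrombospondin 1, THBS1, held 12.5% ± 0.19 and 44.9% ± 0.32. The ratio of FN1 to THBS1 was 4.20 ± 0.084 in shGRHL2 and 0.239 ± 0.0062 in shLuc, so the order of these leading matrix genes was turned round. The 5 most abundant members held 88.2% of the sum in shGRHL2 (FN1, THBS1, EFEMP1, SPARC and TGFBI) and 79.9% in shLuc (THBS1, SPARC, FN1, EFEMP1 and CRIM1).

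**Figure D2:**
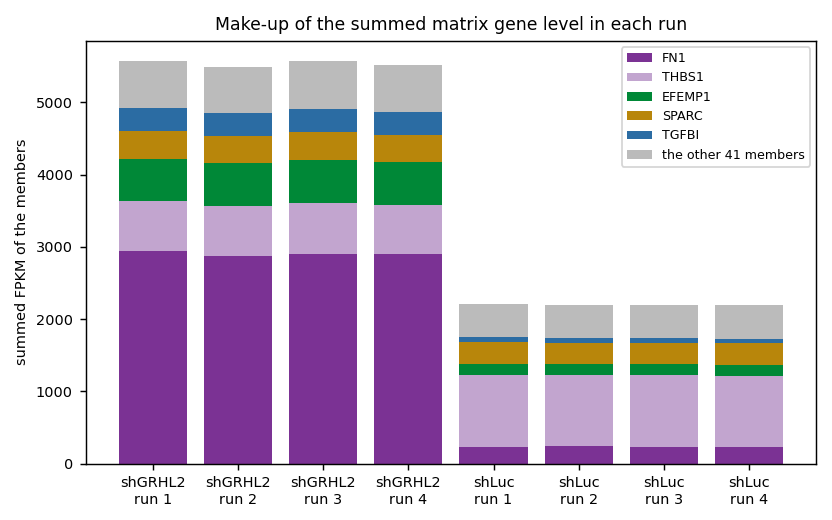
Summed FPKM of the 46 genes in each run, with shGRHL2 runs on the left and shLuc runs on the right, divided among the 5 leading genes and the rest. The FN1 segment makes up 52.1% to 52.8% of the bar in shGRHL2 runs and 10.4% to 11.0% in shLuc runs, and the THBS1 segment is smaller in every shGRHL2 run.

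Of the 12 genes for fibronectin and matricellular proteins, which modulate how cells adhere to matrix, 4 were called higher and 0 lower. Over all genes tested, 4.97% were called higher and 7.24% lower. Of the 4, SPON1 passed the filter only through shGRHL2. TGFBI, a secreted protein that binds integrins and collagen and is named for its induction by TGF-beta (ENSG00000120708.12, chr5:135364677-135399507, plus strand), was at 321, 315, 320 and 317 FPKM in shGRHL2 runs, against 72.2, 68.9, 62.0 and 62.8 FPKM in shLuc runs. Its runs lay close together in shGRHL2. In shLuc they varied more than counting allows (chi-square per degree of freedom of 8.19, where counting alone gives 1). The mean was 4.79-fold higher in shGRHL2. Tenascin C, TNC (ENSG00000041982.10, chr9:117781854-117880486, minus strand), a hexameric glycoprotein that weakens adhesion to fibronectin, was at 49.1, 51.0, 49.9 and 51.3 FPKM, against 5.18, 4.04, 5.02 and 5.28 FPKM in shLuc runs. It was 10.3-fold higher in the shGRHL2 library, at a difference of 3.13. Spondin 1, SPON1 (ENSG00000152268.8), known for guiding axons, was at 1.65, 2.42, 2.36 and 1.86 FPKM, against 0.42, 0.53, 0.68 and 0.48 FPKM in shLuc runs. Its difference of 1.00 lay on the limit, and it fell within 2-fold when either of 2 shGRHL2 runs (2 or 3) or either of 2 shLuc runs (1 or 4) was left out, and when values were rescaled to TPM or to an equal sum without mitochondrial ribosomal RNAs.

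The other abundant matricellular genes stayed within 2-fold. THBS1 (ENSG00000137801.9, chr15:39873280-39891667, plus strand), which can release TGF-beta from its latent form, was at 689, 685, 710 and 680 FPKM in shGRHL2 runs, against 990, 983, 995 and 985 FPKM in shLuc runs. It was lower in every shGRHL2 run, at a difference of −0.51. SPARC (ENSG00000113140.6, chr5:151040657-151066536, minus strand), a collagen-binding protein often listed as a mesenchymal marker, was at 380, 381, 380 and 381 FPKM, against 293, 285, 290 and 301 FPKM in shLuc runs. Its runs did not overlap either, but the difference was 0.38. MFGE8, a bridge between phosphatidylserine and integrins, averaged 20.1 ± 1.7 FPKM in shGRHL2 and 12.7 ± 1.0 FPKM in shLuc. EDIL3, a relative of MFGE8 with the same kind of domains, averaged 19.3 ± 1.1 and 17.9 ± 0.36 FPKM. THBS3 averaged 10.2 ± 1.4 FPKM in shGRHL2 and 10.6 ± 1.1 FPKM in shLuc with overlapping runs. The remaining genes of the group, THBS2, periostin POSTN and SPON2, did not pass the filter. All 3 were listed at 0 in all shLuc runs, and THBS2 was at 0.37, 0.24, 0.07 and 0.15 FPKM in shGRHL2 runs.

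Microfibril and elastic fibre genes held the largest number of calls, 8 higher and 0 lower of 15 listed, with a median difference of 1.18 over all 15. Over all genes tested, 4.97% were called higher and 7.24% lower. Of the 8, 5 were at 1 FPKM or more in both libraries. FBN1, FBLN5 and MFAP5 passed the filter only through shGRHL2, which fixed their direction. Fibrillins are the large glycoproteins that polymerize into microfibrils. FBN1 (ENSG00000166147.9, chr15:48700510-48937918, minus strand) was at 14.8, 16.0, 15.8 and 18.1 FPKM in shGRHL2 runs, against 0.98, 0.47, 1.15 and 0.35 FPKM in shLuc runs. The shGRHL2 mean was 21.9-fold higher, and the shLuc runs spread more than 3-fold among themselves. FBN2 (ENSG00000138829.6, chr5:127593601-127994878, minus strand), the fibrillin prominent in development, was at 46.4, 47.9, 47.2 and 47.0 FPKM, against 20.8, 19.1, 20.4 and 20.3 FPKM in shLuc runs, or 2.34-fold higher. FBN2 remained the more abundant fibrillin in both libraries, but the share of FBN1 in the summed fibrillin level was 25.5% ± 1.6 in shGRHL2 and 3.48% ± 1.7 in shLuc.

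The FBN1 promoter (chr15:48644971-48645220 on GRCh38.p14, minus strand) is given as that of the fibrillin gene with the larger change. The capitals mark the letters CATTCC read on the opposite strand, a short motif bound by TEAD factors.
FBN1: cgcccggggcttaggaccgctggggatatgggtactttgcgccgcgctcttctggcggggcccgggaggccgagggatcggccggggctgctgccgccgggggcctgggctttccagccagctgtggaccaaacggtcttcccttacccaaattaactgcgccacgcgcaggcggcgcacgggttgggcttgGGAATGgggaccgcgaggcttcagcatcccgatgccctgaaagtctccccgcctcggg
CATTCC on either strand was present in 11.9% of all promoters of this length, and in 9 of the 36 members that have a promoter in the table, among them THBS1, SPARC and LTBP4.

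Fibulins are calcium-binding proteins that join microfibrils, elastin and basement membranes. EFEMP1, or fibulin 3 (ENSG00000115380.14, chr2:56093102-56151274, minus strand), was at 582, 593, 593 and 592 FPKM in shGRHL2 runs, against 158, 158, 153 and 155 FPKM in shLuc runs. It was the most abundant fibulin in both libraries, 3.78-fold higher in shGRHL2. FBLN1 (ENSG00000077942.13, chr22:45898118-45997015, plus strand) was at 9.83, 8.55, 8.61 and 8.88 FPKM, against 1.35, 1.90, 1.40 and 1.17 FPKM in shLuc runs (6.16-fold higher). FBLN5 (ENSG00000140092.10, chr14:92335755-92414331, minus strand), required for elastic fibre assembly in mice, was at 2.93, 2.42, 2.61 and 2.54 FPKM, against 0.18, 0.38, 0.09 and 0.25 FPKM in shLuc runs. The shLuc level of FBLN5 rests on about 17.9 fragments, so its 11.7-fold ratio is imprecise. EFEMP2, or fibulin 4, averaged 72.3 ± 5.6 FPKM in shGRHL2 and 36.5 ± 1.4 FPKM in shLuc, a difference of 0.97 just inside the limit. FBLN2 did not pass the filter, at 0.05 to 0.34 FPKM in shGRHL2 and 0.00 to 0.25 FPKM in shLuc.

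Latent TGF-beta binding proteins tether the inactive cytokine to microfibrils, LTBP2 being the family member that does not bind it. LTBP2 (ENSG00000119681.7, chr14:74964886-75079081, minus strand) was at 21.4, 18.8, 19.1 and 18.6 FPKM in shGRHL2 runs, against 5.89, 5.13, 5.03 and 6.22 FPKM in shLuc runs (3.49-fold higher). LTBP4 (ENSG00000090006.13, chr19:41098789-41135723, plus strand) was at 10.4, 11.0, 10.1 and 12.8 FPKM, against 2.61, 0.85, 1.17 and 1.61 FPKM in shLuc runs (7.09-fold higher). LTBP4 has 44 annotated transcripts, the most of the 46 genes, and its shLuc runs varied more than counting allows (chi-square per degree of freedom of 5.34, where counting alone gives 1). LTBP3 averaged 24.2 ± 0.89 FPKM in shGRHL2 and 15.4 ± 1.7 FPKM in shLuc. LTBP3 was the most abundant of the 4 in both libraries, with 43.8% ± 0.48 of their summed level in shGRHL2 and 67.1% ± 5.8 in shLuc. LTBP1 did not pass the filter and its runs overlapped, at 0.26 to 0.86 FPKM in shGRHL2 and 0.33 to 0.42 FPKM in shLuc.

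The microfibril-associated protein MFAP5 (ENSG00000197614.6, chr12:8789942-8815484, minus strand) was at 2.68, 4.11, 2.88 and 4.56 FPKM in shGRHL2 runs, against 0.04, 0.25, 0.25 and 0.45 FPKM in shLuc runs. It was called higher at a difference of 1.86. Its relative MFAP2 and both EMILIN genes, whose products coat elastic fibres, stayed at or under 0.43 FPKM in every run. Members of this group called higher therefore included fibrillins, fibulins, LTBPs and 1 MFAP, and no EMILIN.

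**Figure D3:**
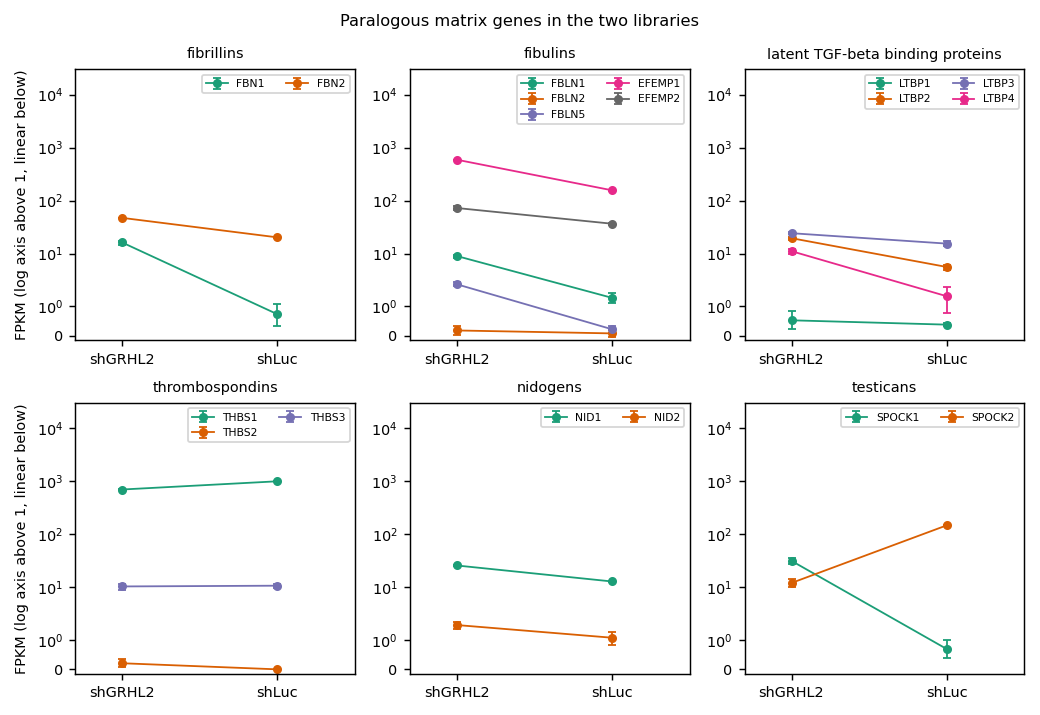
Mean FPKM of paralogous genes in shGRHL2 (left in each panel) and shLuc (right), with bars for the SD between 4 runs, on an axis that is logarithmic above 1 FPKM and linear below. The lines of SPOCK1 and SPOCK2 cross, FBN1 comes closer to FBN2 in shGRHL2, and THBS1 stands far above THBS3 in both libraries.

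Basement membrane genes did not share this direction, with 0 called higher and 2 lower of 7, against 4.97% and 7.24% over all genes tested. Of the 2, LAD1 passed the filter only through shLuc. Ladinin 1, LAD1 (ENSG00000159166.9, chr1:201349961-201369043, minus strand), a protein of epithelial basement membrane anchoring filaments, was at 0.04, 0.00, 0.00 and 0.00 FPKM in shGRHL2 runs, against 51.9, 52.2, 48.6 and 52.4 FPKM in shLuc runs. The difference of −5.69 was the eighth lowest of all genes tested, and under 1 fragment (about 0.480) stood behind the shGRHL2 value, against about 2282 fragments in shLuc. VWA1 (ENSG00000179403.10, chr1:1370241-1378262, plus strand), a partner of perlecan in basement membranes, was at 2.87, 2.97, 2.68 and 3.88 FPKM, against 13.0, 13.1, 11.5 and 14.7 FPKM in shLuc runs. Its mean was 4.22-fold lower in shGRHL2.

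LAD1 is the only gene of the 46 with so complete a loss, so its promoter is shown (chr1:201399325-201399574 on GRCh38.p14, minus strand). The capitals mark, in order, a CATTCC match and the E-box CACCTG on each strand, the letters to which ZEB and SNAI repressors of epithelial genes bind.
LAD1: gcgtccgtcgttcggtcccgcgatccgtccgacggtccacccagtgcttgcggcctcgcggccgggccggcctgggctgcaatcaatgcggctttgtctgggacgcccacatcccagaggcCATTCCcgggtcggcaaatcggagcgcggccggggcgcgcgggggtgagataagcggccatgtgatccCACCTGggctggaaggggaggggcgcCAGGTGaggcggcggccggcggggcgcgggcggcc
The E-boxes begin 61 and 35 bases before the start. CACCTG on either strand was present in 17.5% of all promoters of this length and in 6 of the 36 members with a promoter (LAD1, EDIL3, LTBP3, MFAP2, SPON2 and THBS3). None of the 13 genes with a promoter that were called higher had it. Of the 2 called lower, 1 had it (LAD1), and these numbers are too small to compare. The grainyhead motif AACNNGTT, in 3% of all promoters, was found in 1 member (SPON2), and the AP-1 letters TGANTCA, in 6.57% of all promoters, in 5 members, none of them called. The windows are short, and nothing follows from them about enhancers or about the factors themselves.

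The remaining 5 basement membrane genes lay within 2-fold and did not move one way. Nidogen 1, NID1, which links laminin to collagen IV, averaged 25.4 ± 0.57 FPKM in shGRHL2 and 12.7 ± 0.42 FPKM in shLuc, a difference of 0.95. Nidogen 2, NID2, was much less abundant, at 1.91 ± 0.29 and 1.10 ± 0.29 FPKM, and the share of NID1 in their sum was 93.0% ± 1.1 and 92.0% ± 2.1. The heparan sulfate proteoglycan perlecan, HSPG2, averaged 23.8 ± 3.8 FPKM in shGRHL2 and 34.0 ± 1.3 FPKM in shLuc. Agrin, AGRN, a proteoglycan of the same kind, averaged 30.6 ± 1.1 and 30.2 ± 2.3 FPKM with overlapping runs. Peroxidasin, PXDN, which crosslinks collagen IV, averaged 66.3 ± 0.60 FPKM in shGRHL2 and 85.2 ± 6.5 FPKM in shLuc. Perlecan and peroxidasin were thus lower in every shGRHL2 run, by less than 2-fold, whereas both nidogens were higher.

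Secreted proteoglycans are core proteins with long sulfated sugar chains that hold water and bind growth factors. Of 5 listed, 2 were called higher and 0 lower, against 4.97% and 7.24% over all genes tested. All 3 that passed the filter did so only through shGRHL2. Testican 1, SPOCK1 (ENSG00000152377.8, chr5:136310987-136934068, minus strand), was at 28.8, 32.5, 36.5 and 26.5 FPKM in shGRHL2 runs, against 0.85, 1.03, 0.49 and 0.39 FPKM in shLuc runs. It was 45.0-fold higher and ranked 18 from the top among the differences of all genes tested. Versican, VCAN (ENSG00000038427.11, chr5:82767437-82878122, plus strand), which binds hyaluronan, was at 5.18, 4.84, 5.84 and 4.11 FPKM, against 0.25, 0.27, 0.05 and 0.14 FPKM in shLuc runs. It was called higher at a difference of 2.34, with about 32.0 fragments behind the shLuc level. Biglycan, BGN, a small leucine-rich proteoglycan, averaged 1.00 ± 0.20 FPKM in shGRHL2 and 0.0125 ± 0.025 FPKM in shLuc, on the edge of both the filter and the 2-fold limit. Its relatives decorin, DCN, and lumican, LUM, which are abundant in fibroblasts, were near the floor. DCN was listed at 0 in all 8 runs, and LUM stayed at or under 0.16 FPKM.

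Among the 7 other secreted matrix proteins 3 were called higher and 0 lower, against 4.97% and 7.24% over all genes tested. All 3 passed the filter only through shGRHL2, which fixed their direction. FAM20C (ENSG00000177706.8, chr7:192969-300711, plus strand), the Golgi kinase that phosphorylates many secreted proteins, was at 24.6, 22.2, 21.4 and 22.6 FPKM in shGRHL2 runs, against 0.10, 0.16, 0.05 and 0.05 FPKM in shLuc runs. Its difference of 4.44 was the highest of the 46 genes, but only about 6.26 fragments stood behind the shLuc level, so the ratio itself is poorly known. The secreted serine protease HTRA1 (ENSG00000166033.7, chr10:124218067-124274423, plus strand), which cleaves fibronectin and proteoglycans, was at 3.83, 5.42, 5.60 and 4.37 FPKM in shGRHL2 runs and was listed at 0 in all shLuc runs. SRPX (ENSG00000101955.10, chrX:38008589-38080177, minus strand), a sushi-repeat protein, was at 1.61, 2.46, 1.80 and 2.12 FPKM, against 0.18, 0.00, 0.00 and 0.07 FPKM in shLuc runs. Both genes thus had a low but measurable level in shGRHL2 and were at or near 0 in shLuc.

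SRPX2, a paralog of SRPX and a ligand of the urokinase receptor, went the other way within 2-fold, at 6.16 ± 0.36 FPKM in shGRHL2 and 12.3 ± 0.41 FPKM in shLuc (a difference of −0.89). SRPX held 24.3% ± 2.3 of the summed level of the pair in shGRHL2 and 0.502% ± 0.68 in shLuc. CRIM1, a membrane-bound protein that binds bone morphogenetic proteins (ENSG00000150938.5, chr2:36582921-36778278, plus strand), was at 112, 102, 115 and 103 FPKM in shGRHL2 runs, against 82.9, 88.3, 86.2 and 85.2 FPKM in shLuc runs. Every shGRHL2 run was higher, by a ratio of means of 1.26. Matrilin 2, MATN2, averaged 10.3 ± 1.9 FPKM in shGRHL2 and 6.39 ± 1.2 FPKM in shLuc. ECM1, a partner of perlecan and fibulin 1, averaged 1.19 ± 0.13 and 0.457 ± 0.11 FPKM. Runs of both genes did not overlap, and both differences (0.62 for MATN2 and 0.59 for ECM1) were within the limit on the log2(FPKM + 1) scale, although the ratio of mean FPKM was 2.61 for ECM1. With a pseudocount of 0.1 in place of 1, ECM1 and BGN were called higher too. Both passed the filter only through shGRHL2, so their direction was fixed by it. That gave 19 members higher and 2 lower, against 8.82% higher and 11.1% lower over all genes tested.

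**Figure D4:**
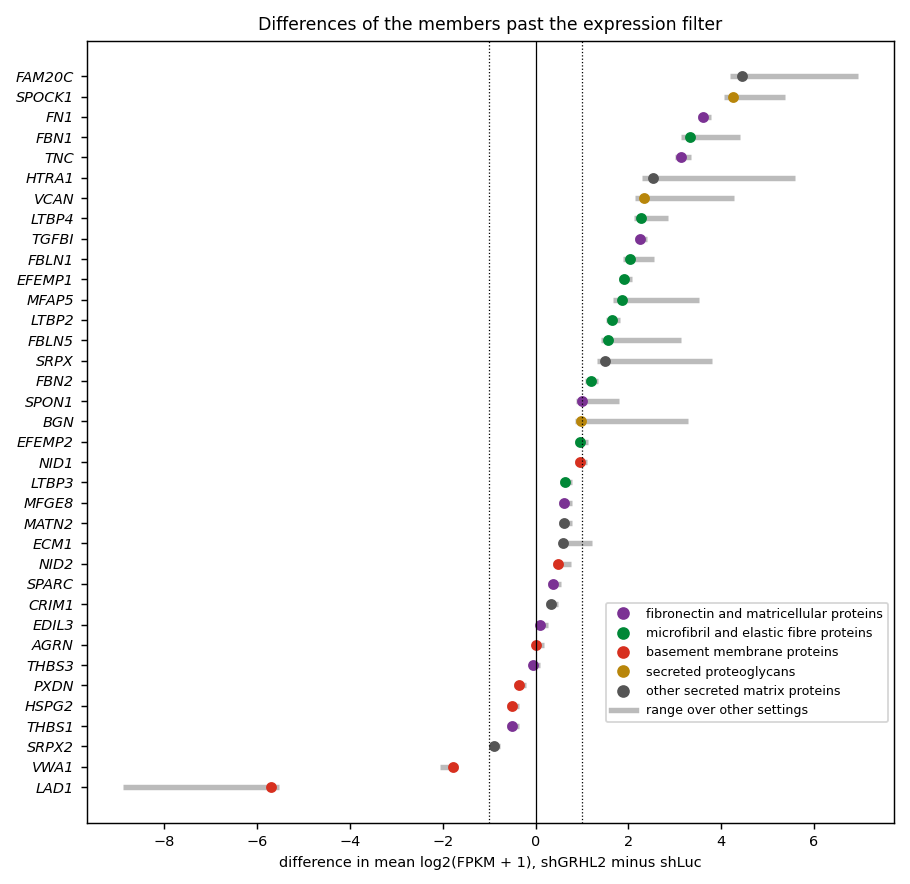
Difference of mean log2(FPKM + 1), shGRHL2 minus shLuc, for the 36 genes that passed the filter, with grey bars for the range over the other pseudocount, the 4 other scalings and the 8 fits that left out a run. Dotted lines mark the 2-fold limit. The range is wide for genes near 0 FPKM in 1 library, such as HTRA1, SRPX, FAM20C and LAD1, and narrow for abundant genes such as FN1, TGFBI and EFEMP1.

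Small differences were common in the whole table, which bears on the genes within 2-fold. Of the 17 such genes, 11 had all shGRHL2 runs above all shLuc runs and 4 had them below, and only AGRN and THBS3 overlapped. BGN and ECM1, among the 11, passed the filter only through shGRHL2, which fixed their direction. Over all genes tested, those called included, 18.5% had all shGRHL2 runs higher and 33.2% had them lower. Runs that do not overlap thus say little about a gene by themselves. Scaling also shifts such small differences. Mitochondrial ribosomal RNA took 25.9% of fragments in every shGRHL2 run and 17.2% in every shLuc run, and leaving it out of the fragment total raised the median difference of all genes by 0.14. With that total, 20 of the 46 genes were higher and 2 lower: the 17 above with BGN, EFEMP2 and NID1. Calls over all genes moved with it, to 6.82% higher (1088 genes) and 6.21% lower (992 genes). The same 3 members were added when the runs were given equal medians, a shift of 0.11, at which 5.92% of all genes were higher and 6.14% lower. The share of higher genes among all calls was 40.7% as deposited, 49.1% with equal medians, 52.3% without mitochondrial ribosomal RNA and 34.1% as TPM.

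**Figure D5:**
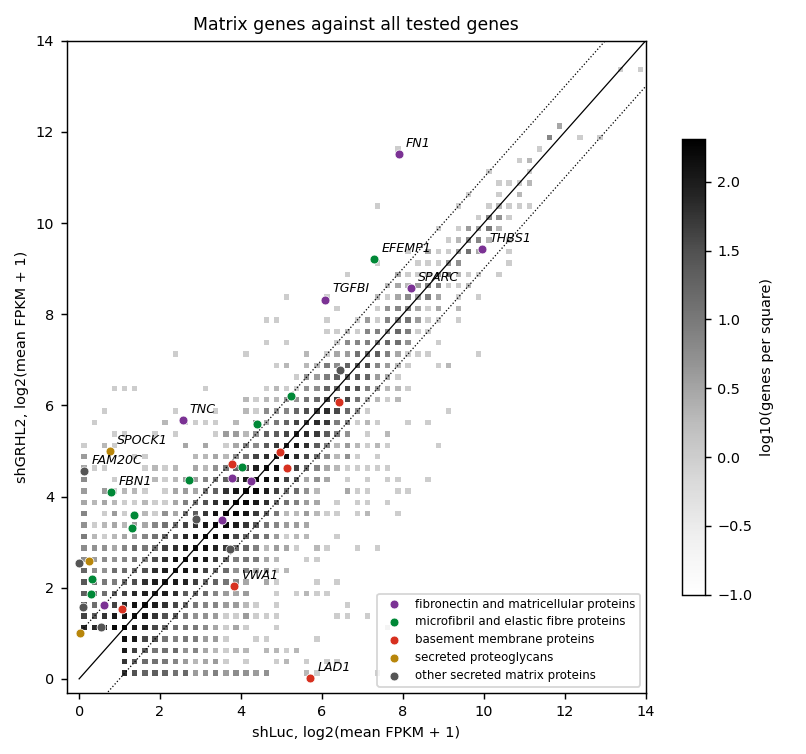
Mean level in shGRHL2 (vertical) against shLuc (horizontal), both as log2(mean FPKM + 1), for the 36 genes that passed the filter (coloured points) over all 15019 genes tested (grey squares, darker with more genes, those beyond the axes not drawn). The solid line marks equal levels and the dotted lines mark 2-fold on this scale. FN1 lies at the upper end of the range in shGRHL2 and far from the line, and THBS1 lies below the line but within 2-fold.

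Other matrix glycoproteins and proteoglycans were compared through a list of 137 further genes, all found in the table. Of these, 38 passed the filter, and 9 were called higher and 7 lower, against 4.97% higher and 7.24% lower over all genes tested. The median difference was 0.01 over all 137 and 0.18 over the 38, against −0.10 over all genes tested. Of the 38, 9 passed only through shGRHL2 and 5 only through shLuc, so the filter fixed the direction of those. Among the 24 passing in both libraries, 4 were higher and 6 lower, against 2.99% and 5.6% over all genes at that level. The highest was ESM1, an endothelial proteoglycan, at 49.1 ± 2.7 FPKM in shGRHL2 and 0.347 ± 0.15 FPKM in shLuc. Osteopontin, SPP1, averaged 8.24 ± 2.1 and 0.217 ± 0.18 FPKM, and the collagen-binding protein AEBP1 averaged 3.42 ± 0.29 and 0.0375 ± 0.048 FPKM. SLIT2, a secreted guidance protein, averaged 22.1 ± 1.1 FPKM in shGRHL2 and 5.85 ± 0.79 FPKM in shLuc, its relative SLIT3 averaged 3.86 ± 0.55 and 0.800 ± 0.22 FPKM, and the matricellular protein NOV averaged 4.52 ± 0.49 and 0.813 ± 0.25 FPKM. These 6 were the highest of the list. All but SLIT2 passed the filter only through shGRHL2, so their direction was fixed by it.

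The lowest gene of that list was a paralog of SPOCK1. Testican 2, SPOCK2, averaged 11.9 ± 2.0 FPKM in shGRHL2 and 146 ± 3.4 FPKM in shLuc (12.2-fold lower), whereas SPOCK3 was listed at 0 in all runs. SPOCK1 held 72.1% ± 5.4 of the summed testican level in shGRHL2 and 0.471% ± 0.20 in shLuc. Among the other lower genes, the laminin-binding netrin NTN4 averaged 1.195 ± 0.36 FPKM in shGRHL2 and 7.11 ± 0.66 FPKM in shLuc. HAPLN1, which links proteoglycans to hyaluronan, averaged 5.96 ± 0.96 and 20.9 ± 1.9 FPKM, and nephronectin, NPNT, an integrin ligand of basement membranes, averaged 0.905 ± 0.16 and 4.50 ± 0.56 FPKM. FRAS1, also of basement membranes, averaged 7.80 ± 0.73 and 17.8 ± 0.46 FPKM, and GAS6, a ligand of TAM receptor kinases, averaged 27.3 ± 1.2 and 60.4 ± 1.6 FPKM. Of these lower genes, NPNT passed the filter only through shLuc, which fixed its direction. With equal medians only 4 genes of this list were called lower, against 6.14% of all genes tested.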

How the data were processed

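RNA-sequencing values of 8 samples, 4 shGRHL2 and 4 shLuc, were analysed. According to the submitters' processing notes, reads were demultiplexed (bcl2fastq 2.17.1.14), aligned to hg19 (STAR 2.4.2a) and quantified per gene (RSEM 1.2.25), and the methods name Gencode v19 as the annotation. The values deposited by the authors are FPKM. The sample behind the effective lengths is not stated. RSEM divides fragments that fit several transcripts, so values of paralogs and overlapping genes depend partly on that division. EBSeq, the count-based tool of the study, was not applied because it cannot take FPKM. The descriptions of the 4 samples end in suffixes of the kind that number sequencing lanes, and a median coefficient of variation under 3% was set as the rule for treating them as 1 library.

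From the table (57820 genes, 27714 at 0 throughout), genes with a mean of 1 FPKM or more in at least 1 group were tested (15019), with a pseudocount of 1 that understates changes of low genes. A fold in the text divides mean FPKM values, and the 2-fold limit applies to log2(FPKM + 1). Depth came from low values of single-transcript genes with effective lengths of 300 to 1500 bases. With the depth chosen for each run, 87.0% to 88.8% of these low values lay within 0.1 of a whole fragment, so fragment numbers are approximate and cover counting error only. The lowest depth that made the steps whole was taken, so a multiple of it is not excluded. It was not checked against the read number that the study reports. Gene coordinates came from Gencode v44 in its GRCh37 version, hg19 being that assembly (SPON1 had no match and is given without), and promoters from RefSeq on GRCh38.p14, where 36 of the 46 genes matched. Motifs were searched on both strands.

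The members, lists and tests were chosen with earlier results of these data known. Run values are given for each member called and for each at 100 FPKM or more in either group, and of the further matrix list the 6 highest and 6 lowest calls are named. The difference was checked on simulated data. Alternatives were a pseudocount of 0.1, a filter at 5 FPKM or none, equal medians, TPM, rescaling to an equal sum without the mitochondrial ribosomal RNAs, and leaving out each run. A filter on the mean of all 8 runs, a filter at 1 FPKM in both groups and a fragment total without mitochondrial ribosomal RNAs were added after seeing the data. Python 3.11.15, pandas 2.3.3, numpy 2.4.6 and matplotlib 3.10.9 were used.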

Additional observations from a re-analysis of the deposited data

Results flagged for a closer look

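In each group of 4 runs, the highest or lowest run was compared with the range of the group by Dixon's ratio, which chance exceeds in about 1 of 20 groups. Of 72 groups looked at, 5 exceeded its 95% critical value. EFEMP1 was at 582 FPKM in run 1 of shGRHL2, below 592 to 593 FPKM in the other runs. LAD1 was at 48.6 FPKM in run 3 of shLuc, and at 0.04 FPKM in run 1 of shGRHL2, where the other runs were listed at 0. BGN was at 0.05 FPKM in run 2 of shLuc and listed at 0 in the others. For LAD1 in shGRHL2 and BGN in shLuc the zeros make the ratio 1 by construction, so the rate of 1 in 20 does not apply. Under 1 fragment stood behind each, about 0.480 for LAD1 and 0.750 for BGN. MATN2 was at 8.18 FPKM in run 1 of shLuc, above at most 5.89 FPKM in the other runs. Leaving out any of these runs did not move LAD1 or EFEMP1 to the other side of the 2-fold limit.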

How the results depend on the processing

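No paired analysis was possible because the results come from no test: the run numbers are shared between the libraries but no p-value was computed. With a pseudocount of 0.1, 1324 genes tested (8.82%) were higher and 1663 (11.1%) lower, against 746 and 1087 with a pseudocount of 1. At that setting 19 members were higher with BGN and ECM1 added, both of which passed the filter only through shGRHL2. The median of the members that passed the filter was 1.22 and the GRHL2 difference −6.61. With a filter at 5 FPKM, 464 genes of the table were higher and 807 lower, so 36.5% of calls were higher. Of the 46 members, 27 passed it, and 11 were higher and 2 lower. FBLN5, HTRA1, MFAP5, SPON1, SRPX and VCAN no longer passed, and the members' median was 0.63. With 1 FPKM required in both groups, 388 genes of the table (2.99% of those passing), 8 members and 4 further matrix genes were higher. At that filter 1 member and 5.6% of the genes passing were lower, and the members' median was 0.62. Their median was 0.62 with no filter, 1.07 with equal medians, 0.87 as TPM, 0.92 after rescaling without mitochondrial ribosomal RNAs and 1.17 with the fragment total without them. Of the 137 further matrix genes, 4 were lower with equal medians and with that fragment total, against 6.14% and 6.21% of all genes tested. Leaving out 1 run at a time gave 16 to 18 members higher, 2 lower, a median of 0.95 to 1.01, 9 to 10 further matrix genes higher and 7 lower, and a GRHL2 difference of −4.95 to −4.62. In the whole table, 757 to 787 genes were then higher and 1100 to 1132 lower. Of 468 member differences under 13 settings, 461 kept their sign, and the 7 that did not belonged to THBS3 and AGRN, which lay near 0. No called member changed sign. VWA1 was called lower in all settings, and LAD1 in all but the filter in both groups, which it did not pass. Members under 1 FPKM in shLuc rest on few fragments, and the size of their fold is limited by depth.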

Other observations

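Spread between runs was compared with counting for the 20 members with 400 or more estimated fragments in both libraries. The median chi-square per degree of freedom, which is 1 for counting alone, was 2.23 in shGRHL2 and 2.45 in shLuc. The largest values were 51.6 for HSPG2 in shGRHL2, with runs at 19.98, 23.27, 29.05 and 22.80 FPKM, and 22.8 for PXDN in shLuc, with runs at 91.7, 89.4, 77.4 and 82.4 FPKM. HSPG2 has 16 annotated transcripts and PXDN 14. Both genes had the smaller spread in the other library, at 3.68 for HSPG2 in shLuc and 0.257 for PXDN in shGRHL2. FN1 gave 17.2 in shGRHL2 and 8.29 in shLuc, at an SD of 29.1 FPKM around 2905 FPKM and of 5.99 FPKM around 236 FPKM. The cause of the spread was not tested.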
